A study of Mus musculus with 8 samples.

Results

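The PGC-1 coactivators, the PPAR and ERR nuclear receptors, nuclear respiratory factor 1 and the mitochondrial transcription factor Tfam were followed in mouse hearts under pressure overload. They were taken from the gene count table by name: Ppargc1a, Ppargc1b, Ppara, Ppard, Pparg, Esrra, Esrrb, Esrrg, Nrf1 and Tfam. All 10 were present among the 56748 genes of the table, and all 10 passed the filter on low counts that left 16780 genes for testing. None of the 10 differed between the groups past an adjusted p of 0.05. Ppargc1a, Ppara, Esrrb and Esrrg stood highest in the same pair of control hearts, ACRE 2 and ACRE 4.

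Polyadenylated RNA was sequenced from 8 hearts, described as whole, of C56BL mice of both sexes aged 3 to 4 months. Every heart had been exposed for 7 days to transverse aortic constriction, an operation that narrows the aortic arch and loads the left ventricle with pressure. The 4 controls (ACRE) carried the Cre recombinase driven by the alpha myosin heavy chain promoter, which acts in cardiomyocytes, and the other 4 (CMS7KO) were labelled as Smad7 knockouts made in cardiomyocytes with the same Cre. The groups ask what loss of Smad7, an inhibitor of TGF-beta receptor signalling, changes in the loaded heart. Unoperated hearts were not analysed here, so no value below shows the effect of the operation.

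PGC-1 proteins do not bind DNA themselves. They are recruited by nuclear receptors and other factors and switch on genes of mitochondrial respiration and fatty acid oxidation, the main fuel pathway of the adult heart. PPARs bind DNA as heterodimers with retinoid X receptors and respond to fatty acids, while ERRs are orphan receptors for which PGC-1 acts as a protein partner. Nuclear respiratory factor 1 controls nuclear genes for mitochondrial proteins, and Tfam, encoded in the nucleus, packages mitochondrial DNA and starts its transcription. This pathway is known to decline in failing hearts.

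The libraries held 12920435 to 17199600 counted reads. Principal components of log2 expression set ACRE 2 and ACRE 4 apart from the other 6 libraries, with scores of 63.6 and 76.4 on the first component against -48.0 to -11.3. Libraries labelled CMS7KO had no less Smad7 transcript (30.9 to 43.1 CPM) than ACRE (23.9 to 34.6 CPM). CPM are counts per 1000000 reads after trimmed mean scaling. Whole-heart counts include cells other than cardiomyocytes, so this level cannot check a deletion made in cardiomyocytes. Each direction by genotype therefore rests on the labels. Replicates 3 and 4 of each group were labelled female, but ACRE 3 and CMS7KO 3 had 5 and 9 reads of Xist and 1418 and 1332 of the Y-linked Ddx3y, against 3752 and 11204 reads of Xist and 0 of Ddx3y in ACRE 4 and CMS7KO 4. All 12 cardiomyocyte markers were detected in every library. Their summed level, of which Myh6 made up the greatest part, was 53044 to 114755 CPM in ACRE, highest in ACRE 4 (114755) and ACRE 2 (89441), and 37366 to 60886 CPM in CMS7KO.

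Promoter sequence is shown for 3 members: Ppargc1a and Ppara, which were high together in ACRE 2 and ACRE 4, and Esrra, whose group means were nearly equal. Each runs 5′ to 3′ on the gene's strand from 250 bases before to 50 bases after the start of the gene in RefSeq (GRCm38.p6). Capitals mark a match to the NRF-1 site. The windows are chr5:51567676-51567975 on the minus strand for Ppargc1a, chr15:85735526-85735825 on the plus strand for Ppara and chr19:6921759-6922058 on the minus strand for Esrra.
Ppargc1a: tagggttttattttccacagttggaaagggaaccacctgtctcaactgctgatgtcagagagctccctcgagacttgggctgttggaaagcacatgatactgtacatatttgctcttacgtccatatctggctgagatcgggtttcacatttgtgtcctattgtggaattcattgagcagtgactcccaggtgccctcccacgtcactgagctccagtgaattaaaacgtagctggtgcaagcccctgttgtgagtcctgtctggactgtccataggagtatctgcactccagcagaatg
Ppara: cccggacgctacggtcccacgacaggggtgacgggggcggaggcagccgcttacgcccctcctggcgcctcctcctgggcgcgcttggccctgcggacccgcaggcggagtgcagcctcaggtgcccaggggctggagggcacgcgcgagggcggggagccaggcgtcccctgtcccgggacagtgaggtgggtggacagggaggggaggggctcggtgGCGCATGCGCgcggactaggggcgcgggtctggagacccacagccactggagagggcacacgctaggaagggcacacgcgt
Esrra: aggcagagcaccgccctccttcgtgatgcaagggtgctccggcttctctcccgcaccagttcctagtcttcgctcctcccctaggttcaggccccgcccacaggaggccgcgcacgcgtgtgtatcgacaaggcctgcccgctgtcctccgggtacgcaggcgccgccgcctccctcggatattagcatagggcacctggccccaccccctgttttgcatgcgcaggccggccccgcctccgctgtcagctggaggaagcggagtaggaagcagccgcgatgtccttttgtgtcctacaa
The Ppargc1a window had 48.7% G and C and 5 CG pairs, that of Ppara 74.7% and 30, and that of Esrra 66% and 25, where the median of all 32851 windows was 52.7% and 7. Windows were searched for 9 members (all but Ppargc1b), 16 windows in all, on both strands. The ERR response element TNAAGGTCA, the PPAR element (AGGTCA repeated with 1 base between), the cyclic AMP response element TGACGTCA and the E-box CACGTG had no match in them, and stood in 1.28%, 0.0396%, 1.79% and 7.15% of all windows. The NRF-1 site (GCGCA and GCGC with any 1 base between) matched once, as GCGCATGCGC from position -31 of Ppara counted from the start, and stood in 4.60% of all windows. The half-site AGGTCA, which the ERR and PPAR elements also contain, was found in 2 of the 3 windows of Pparg and in 16.3% of all. These matches describe the letters of short windows and not binding.

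Ppargc1a (chromosome 5, 51611592 to 51725068) encodes PGC-1alpha, the inducible coactivator of the family. Positions of members are those of the deposited table, whose build was not identified and which differ from the RefSeq windows above. Ppargc1a stood at 43.6, 104, 47.4 and 168 CPM over ACRE 1 to 4 and, over CMS7KO 1 to 4, at 41.7, 32.7, 43.2 and 45.4 CPM. ACRE 4 and ACRE 2 were the highest libraries, while ACRE 1 and ACRE 3 lay among or next to the CMS7KO values, so the groups overlapped. ACRE averaged 90.8 ± 58.4 CPM and CMS7KO 40.7 ± 5.58 CPM (SD, n = 4 each), and the log2 fold change, CMS7KO minus ACRE, was -1.13 (SE 0.39, edgeR adjusted p = 0.282). Without ACRE 2 and ACRE 4, which were singled out in these same data, the log2 fold change was -0.17 (SE 0.14, edgeR adjusted p = 0.7199). The sum of the cardiomyocyte markers was also highest in these 2 libraries, as were 7 of the 12 markers singly, and their part in the Ppargc1a values was not tested. In bulk tissue, fewer cardiomyocytes and less of a transcript per cardiomyocyte cannot be told apart.

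Ppargc1b (chromosome 18, 61431207 to 61533502), which encodes the related coactivator PGC-1beta, was at 11.3, 19.2, 13.3 and 28.4 CPM (ACRE 1 to 4), against 14.6, 16.7, 11.2 and 17.7 CPM (CMS7KO 1 to 4). ACRE 4 was again the highest and ACRE 2 the next, but by a smaller margin, and the groups overlapped. The log2 fold change was -0.24 (SE 0.30, edgeR adjusted p = 0.703) with all libraries and 0.29 (SE 0.23, adjusted p = 0.682) without ACRE 2 and ACRE 4, so its sign turned. Per kilobase of gene length, Ppargc1a made up 68.4 to 78.2% of the summed PGC-1 level in ACRE and 54.2 to 69.9% in CMS7KO.

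Ppara (chromosome 15, 85619184 to 85687020) encodes PPARalpha, the receptor that controls fatty acid oxidation in cardiac muscle. In ACRE 1 to 4 its levels were 8.37, 23.3, 8.23 and 39.5 CPM, and in CMS7KO 1 to 4 they were 8.26, 5.03, 6.26 and 7.02 CPM (94 to 409 reads). ACRE 2 and ACRE 4 stood far above all others, and ACRE 3 lay just below CMS7KO 1. The means of 19.8 ± 14.9 and 6.64 ± 1.35 CPM (SD, n = 4 each) corresponded to a log2 fold change, over all libraries, of -1.54 (SE 0.49, edgeR adjusted p = 0.2699), and -0.33 (SE 0.26, adjusted p = 0.698) without ACRE 2 and ACRE 4.

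Ppard (chromosome 17, 28451674 to 28520448), which encodes the broadly expressed PPARdelta, varied least. It stood at 38.3, 36.3, 38.1 and 49.1 CPM over ACRE 1 to 4 and, over CMS7KO 1 to 4, at 38.2, 34.2, 38.9 and 36.02 CPM. Apart from ACRE 4, whose low trimmed mean factor (0.803) raises its CPM, every library was within 34.2 to 38.9 CPM. The fold, CMS7KO over ACRE, was 0.914 with a 95% confidence interval of 0.733 to 1.14 (edgeR adjusted p = 0.655).

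Pparg (chromosome 6, 115337912 to 115467360) encodes PPARgamma, the receptor that drives fat cell differentiation and is also found in endothelium and macrophages. It was at 15.2, 9.86, 20.03 and 16.9 CPM (ACRE 1 to 4), against 10.5, 12.9, 15.5 and 14.3 CPM (CMS7KO 1 to 4). ACRE 2 had the lowest value and ACRE 3 the highest, unlike Ppara. The fold was 0.868 (95% confidence interval 0.645 to 1.17, edgeR adjusted p = 0.605). The defining fat cell gene Adipoq was at 0 to 1.45 CPM in ACRE and 0.13 to 7.10 CPM in CMS7KO, highest in CMS7KO 4, where Pparg was not the highest. Adipocyte markers, with Fabp4 that is also among the endothelial markers, summed to 1595, 857, 1604 and 978 CPM in ACRE 1 to 4. Their sum was 1112 to 1342 CPM in CMS7KO, and it was lowest in ACRE 2 and highest in ACRE 3, as was Pparg. Fabp4, at 1257, 534, 1184 and 530 CPM in ACRE 1 to 4, made up the greatest part of this sum. Plin1, Cidec, Retn, Cfd and Lep, like Adipoq, were instead highest in CMS7KO 4. Plin4 was highest in ACRE 4, and Lipe and Fabp4 in ACRE 1. Of the brown fat markers, Ucp1 had at most 0.06 CPM and Elovl3 at most 0.29 CPM. Cidea, Dio2 and Prdm16 were at 19.8 to 47.1, 4.21 to 26.2 and 21.6 to 29.9 CPM. Endothelial markers summed to 4353, 2031, 4595 and 2481 CPM in ACRE 1 to 4 and 3286 to 4086 CPM in CMS7KO, lowest in ACRE 2 as was Pparg. The part of these cell types in the Pparg values was not tested.

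Esrra (chromosome 19, 6888345 to 6899208), which encodes ERRalpha, the most abundant member, showed 109, 174, 97.5 and 144 CPM across ACRE 1 to 4, with 130.3, 125, 142 and 123 CPM across CMS7KO 1 to 4. The CMS7KO values lay inside the ACRE range, between ACRE 1 and ACRE 4. The fold was 0.996 (95% confidence interval 0.719 to 1.38, edgeR adjusted p = 0.992). Without ACRE 2 and ACRE 4 the sign turned, to 0.33 on the log2 scale (SE 0.14, adjusted p = 0.349). Esrra overlaps Trmt112 on the other strand, a gene with 153 to 378 reads per library, and the strand setting of the counting is unknown here.

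Esrrb (chromosome 12, 86407891 to 86568402) encodes ERRbeta, known from placenta and pluripotent stem cells. In ACRE 1 to 4 it measured 14.1, 33.9, 11.7 and 52.5 CPM, and CMS7KO 1 to 4 gave 15.1, 6.17, 11.1 and 11.9 CPM. As for Ppara, ACRE 2 and ACRE 4 were high, and CMS7KO 1 exceeded ACRE 1 and ACRE 3. The log2 fold change was -1.33 (SE 0.48, edgeR adjusted p = 0.2905), and -0.24 (SE 0.31, adjusted p = 0.846) without these 2 libraries. CMS7KO 2, the lowest of all at 6.17 CPM, also had the lowest summed cardiomyocyte markers (37366 CPM) and the highest fibroblast markers (7883 CPM). It was the lowest library for Ppargc1a, Ppara, Ppard, Esrrg and Tfam as well. The part of these cell types in such low values was not tested.

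Esrrg (chromosome 1, 187340988 to 187947082) encodes ERRgamma, a receptor of highly oxidative tissues such as heart. On the log2 scale it had the widest range of the 10, with levels of 11.3, 56.3, 9.55 and 68.3 CPM in ACRE 1 to 4 and 10.4, 6.80, 9.79 and 10.2 CPM in CMS7KO 1 to 4. ACRE 2 and ACRE 4 were the only libraries above 11.3 CPM, and ACRE 3 lay below 3 of the CMS7KO libraries. Group means were 36.4 ± 30.3 and 9.32 ± 1.70 CPM (SD, n = 4 each) and the log2 fold change was -1.96 (SE 0.61, edgeR adjusted p = 0.262), with a fold of 0.257 and a 95% confidence interval, not adjusted for the number of genes, of 0.0997 to 0.661. Without ACRE 2 and ACRE 4 the log2 fold change was -0.18 (SE 0.24, adjusted p = 0.849).

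Nrf1 (chromosome 6, 30047987 to 30153457) was at 15.7, 14.8, 22.2 and 16.3 CPM over ACRE 1 to 4 and, over CMS7KO 1 to 4, at 16.95, 18.5, 20.5 and 19.7 CPM. It was the sole member with a higher mean in CMS7KO, and the groups overlapped through ACRE 3, the highest library. The fold was 1.102 (95% confidence interval 0.859 to 1.41, edgeR adjusted p = 0.673). Tfam (chromosome 10, 71061294 to 71074110) stood at 32.1, 49.6, 24.3 and 47.98 CPM (ACRE 1 to 4), against 29.9, 17.7, 23.8 and 27.4 CPM (CMS7KO 1 to 4). ACRE 2 and ACRE 4 were again highest, ACRE 3 lay within the CMS7KO range, and the log2 fold change was -0.64 (SE 0.26, edgeR adjusted p = 0.312), or -0.19 (SE 0.22, adjusted p = 0.815) without these 2 libraries.

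**Figure D1:**
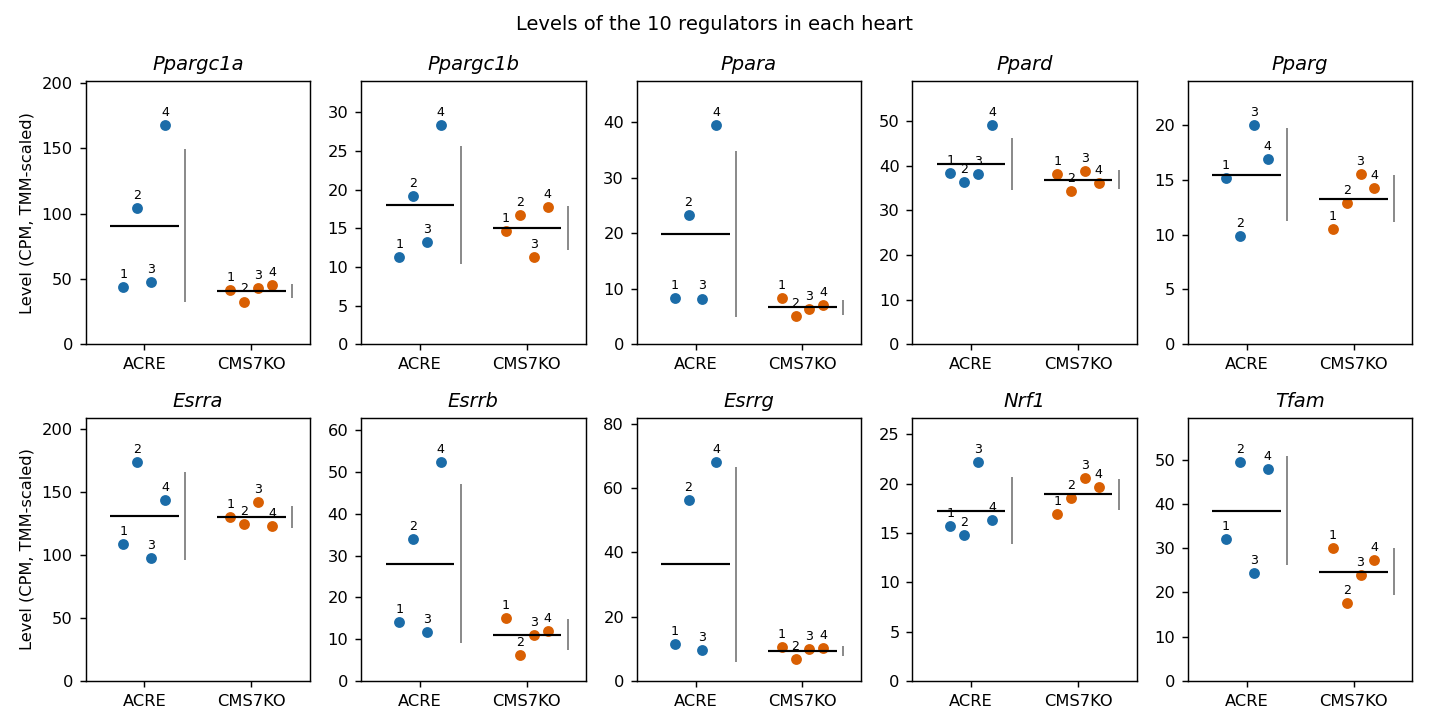
Level of each regulator (CPM after trimmed mean scaling, from 0) in every heart, with the replicate number above each point, the group mean as a black line and 1 SD to either side of the mean as a grey bar, cut off at 0 where it would pass it. For Ppargc1a, Ppara, Esrrb and Esrrg the points of ACRE 2 and ACRE 4 stand above all others, as with 104 and 168 CPM for Ppargc1a.

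By edgeR's quasi-likelihood test, 0 of the 10 members passed an adjusted p of 0.05, where 0.0358% of the 16780 genes tested did, 0.0179% higher and 0.0179% lower in CMS7KO. DESeq2 on the same genes called 2, Ppara (adjusted p = 0.0418) and Esrrg (0.0222), both lower, where it called 2.88% of genes, and limma voom called 0. An unadjusted p under 0.05 was found for 5 members, Ppargc1a, Ppara, Esrrb, Esrrg and Tfam, all lower, where 8.20% of genes were lower and 7.12% higher at that level. For 0 of the 10 did the groups not overlap, where 9.59% of genes were so separated, 4.18% with all CMS7KO libraries below and 5.41% above. The log2 fold change was below 0 for 9 of 10 members (7 when scaled to library size alone), against 50.6% of all genes, and the median was -0.44 against -0.01 over all genes. Leaving out ACRE 2 and ACRE 4 gave 7 of 10 below 0, against 48.6% of genes, a median of -0.17 and 0 members past the threshold, where 0.979% of genes passed. The unadjusted p under 0.05 then belonged to Pparg and Esrra (12.2% of genes) and no longer to the 5 named above. ACRE 2 and ACRE 4 were singled out in these same data and were the 2 highest libraries for each of those 5. Leaving them out therefore had to weaken these differences, and it left only ACRE 1 and ACRE 3 as controls. It is not an independent check. Leaving out ACRE 3 and CMS7KO 3, whose sex label did not match, left 0 members past the threshold.

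**Figure D2:**
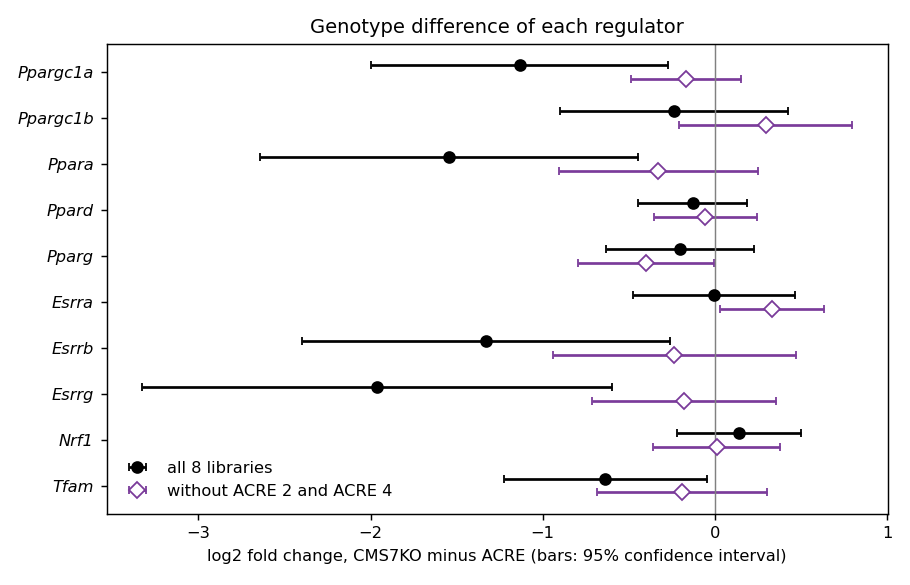
Log2 fold change of each regulator, CMS7KO minus ACRE, with its 95% confidence interval, from all 8 libraries (filled circles) and without ACRE 2 and ACRE 4 (open diamonds). The estimate of Esrrg moves from -1.96 to -0.18 and that of Ppara from -1.54 to -0.33.

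Values were more spread among ACRE hearts. The coefficient of variation of the 10 members was 14.5 to 83.4% among ACRE hearts and 5.71 to 33.3% among CMS7KO hearts, and it was larger in ACRE for each member. On scaled CPM, ACRE 2 and ACRE 4 were the 2 highest libraries for 7 of the 10, all but Ppard, Pparg and Nrf1. The same held for 3768 of the 16780 genes tested (22.5%), so many other genes shared this order of libraries. These 2 libraries had the lowest trimmed mean factors, 0.868 and 0.803, against 0.99 to 1.13 in the others. A lower factor raises scaled CPM, and the part of the scaling in this order was not tested.

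Dividing by the geometric mean of the 12 cardiomyocyte markers, which was 2894 to 5773 CPM in ACRE and 2156 to 3410 CPM in CMS7KO, changed the order of libraries for some members. On the log2 scale and centred on each gene, this ratio for Esrrg was -0.43, 1.49, -0.45 and 1.39 in ACRE 1 to 4 and -0.56 to -0.37 in CMS7KO. Esrrg thus stayed high in ACRE 2 and ACRE 4 relative to these markers. So did Ppargc1a (0.50 and 0.81) and Esrrb (0.73 and 0.98). Tfam was highest in ACRE 2 alone, with ratios of 0.09, 0.34, -0.07 and -0.09 in ACRE and -0.11 to -0.01 in CMS7KO. The ratio for Ppara was -0.29, 0.80, -0.08 and 1.19 in ACRE and -0.50 to -0.31 in CMS7KO, the sole member whose CMS7KO values all lay below ACRE; the nearest pair was CMS7KO 1 at -0.31 and ACRE 1 at -0.29. Of all genes tested, 0.584% were separated in this way. The difference of mean ratios, CMS7KO minus ACRE, was above 0 for Ppargc1b (0.28), Ppard (0.34), Pparg (0.28), Esrra (0.49) and Nrf1 (0.62). It was below 0 for Ppargc1a (-0.47), Ppara (-0.81), Esrrb (-0.68), Esrrg (-0.998) and Tfam (-0.14). The markers themselves were uneven, and 5 of 12, Tnnt2, Tnni3, Myl2, Myl3 and Myh7, did not have ACRE 2 and ACRE 4 as their 2 highest libraries. Atp2a2, the calcium pump, was at 3299, 10228, 3045 and 15554 CPM in ACRE 1 to 4, while the troponin gene Tnni3 was at 4150, 2565, 3276 and 3210 CPM.

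Levels of different members were compared per kilobase of the gene length in the table. Esrra led in all 8 libraries, at 22.1 to 39.4 CPM per kilobase, and exceeded Ppargc1a, the next by mean, in 8 of 8. Ppargc1a, at 4.96 to 25.5, exceeded Tfam, at 3.99 to 11.2, in 6 of 8 libraries, and Tfam exceeded Ppard in 7 of 8. Further down the order, neighbours were not separated. Ppard exceeded Pparg in 4 of 8 libraries, and Esrrg, Ppara and Esrrb held means of 3.68, 3.45 and 3.23 CPM per kilobase with ranges that overlapped almost wholly. Nrf1 was lowest by mean, at 1.43 to 2.16. The place of Esrrg in the order turned on 2 hearts. It was at 9.06 and 10.99 CPM per kilobase in ACRE 2 and ACRE 4, and at 1.83 and 1.54 in ACRE 1 and ACRE 3, near its CMS7KO range of 1.09 to 1.68.

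Within families the split moved with ACRE 2 and ACRE 4. Esrra made up 85.5, 72.9, 86.4 and 62.3% of the summed ERR level per kilobase in ACRE 1 to 4 and 87.6 to 93.03% in CMS7KO. Esrrg took 16.7% in ACRE 2 and 21.1% in ACRE 4, against 3.61 to 6.35% in the other 6 libraries. Among PPARs, Ppara took 42.6% in ACRE 2 and 45.6% in ACRE 4 and 12.8 to 19.95% elsewhere.

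**Figure D3:**
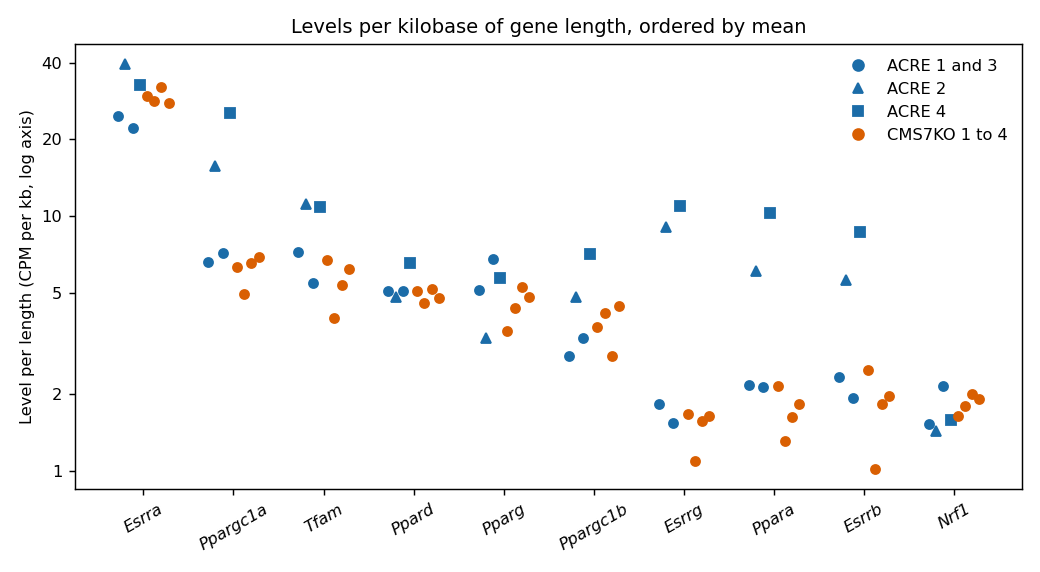
Level of each regulator per kilobase of gene length (CPM per kb, log axis) in the 8 hearts, ordered by mean. Esrra lies at 22.1 to 39.4 in all libraries, while Esrrg, Ppara and Esrrb spread over a wide range with ACRE 2 (triangles) and ACRE 4 (squares) on top.

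Genes with the most similar pattern were found by the root mean square difference of centred log2 CPM over the 8 libraries, among 10882 other named genes with a mean of at least 5 CPM. These are descriptions over libraries that share the split of ACRE 2 and ACRE 4. Nearest to Ppargc1a were Aldh6a1 of valine catabolism (difference 0.069), Acot2, a mitochondrial acyl-CoA thioesterase (0.11), and Perm1, a muscle regulator acting with PGC-1 and ERRs (0.118). Aldh6a1 stood at 82.9, 209.9, 92.1 and 334 CPM in ACRE 1 to 4, with CMS7KO at 60.5 to 87.8 CPM. Ogdh, a subunit of the 2-oxoglutarate dehydrogenase complex, was nearest both to Ppara (0.135) and to Esrrb (0.0955), followed by Opa1 and Nadk2 for Ppara and by Ppm1k and Dld for Esrrb. Opa1 fuses mitochondrial inner membranes, Nadk2 is a mitochondrial NAD kinase, Ppm1k is the phosphatase that activates branched-chain ketoacid breakdown, and Dld is a shared dehydrogenase subunit. Esrrg had less close neighbours, Pptc7 (0.215), Pdha1 (0.222) and Mylk4 (0.2296). Pdha1, a pyruvate dehydrogenase subunit, was at 141, 877, 117 and 1003 CPM in ACRE 1 to 4, with CMS7KO at 104 to 205 CPM.

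Tfam was most like 3 genes of mitochondria: Aifm1, an inner membrane flavoprotein (0.0736), Supv3l1, a helicase of mitochondrial RNA turnover (0.0774), and Mrpl1, a ribosomal protein of the organelle (0.0798). Supv3l1 was at 30.8, 44.3, 25.7 and 50.6 CPM in ACRE and 18.4 to 31.1 CPM in CMS7KO. Pparg was nearest to Epas1, a hypoxia-inducible factor prominent in endothelium (0.0885), then Zfp41 and Nynrin. Epas1 stood at 584, 388, 694 and 539 CPM in ACRE 1 to 4, lowest in ACRE 2 and highest in ACRE 3 as Pparg was. For Ppargc1b the nearest were Scara5, Wls and Srr (0.127 to 0.137). Ppard, Esrra and Nrf1 spanned less than 1 log2 unit over the libraries and were not matched.

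Of 31 genes of fatty acid metabolism under PPAR control, 29 were tested (all but Vnn1 and Fgf21), 26 were lower and 3 higher by the sign of the log2 fold change, and 0 passed the threshold in either direction (DESeq2 passed 3, all lower). At an unadjusted p under 0.05, 13 were lower. The median log2 fold change was -0.85 against -0.01 over all genes, and -0.16 without ACRE 2 and ACRE 4. For this list and those below, 50.6% of all genes had a log2 fold change below 0. At an unadjusted p under 0.05, 8.20% of all genes were lower and 7.12% higher, and DESeq2 passed 2.88%. Ucp3, a mitochondrial carrier induced by fatty acids, stood at 27.4, 24.7, 22.5 and 30.9 CPM over ACRE 1 to 4 and, over CMS7KO 1 to 4, at 18.9, 6.85, 8.40 and 12.9 CPM. Unlike Ppara, it was not set apart in ACRE 2 and ACRE 4, and its groups did not overlap (4.18% of genes lay lower in this way). Its log2 fold change was -1.18 (SE 0.30, edgeR adjusted p = 0.209) and -1.10 without these 2 libraries (adjusted p = 0.265). Acsl1, which activates long-chain fatty acids, and Pdk4, the kinase that restrains pyruvate dehydrogenase, followed the split. Acsl1 was at 290.2, 866, 258 and 1125 CPM in ACRE and 129 to 262 CPM in CMS7KO (log2 fold change -1.67, edgeR adjusted p = 0.245, and -0.47 without ACRE 2 and ACRE 4). Pdk4 was at 73.8, 262, 77.4 and 203 CPM in ACRE and 44.3 to 80.4 CPM in CMS7KO (-1.39, adjusted p = 0.254, and -0.37).

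All 23 genes of oxidative metabolism under ERR and PGC-1 control were tested, of which 21 were lower and 2 higher. None passed the threshold with edgeR or DESeq2, and 7 were lower at an unadjusted p under 0.05. Their median was -0.49, and -0.18 without ACRE 2 and ACRE 4. Perm1 stood at 183, 362, 150.2 and 568 CPM in ACRE 1 to 4, with CMS7KO at 105 to 167 CPM (log2 fold change -1.14, edgeR adjusted p = 0.282). Ogdh, at 482 to 963 CPM in CMS7KO, was at 2466 and 3505 CPM in ACRE 2 and ACRE 4 and at 935 and 778 CPM in ACRE 1 and ACRE 3 (-1.38, adjusted p = 0.289). The complex I subunit Ndufs1 showed the same order, with 676 and 817 CPM in those 2 hearts and 141 to 285 CPM in the other 6 hearts (-1.13, adjusted p = 0.307). Without ACRE 2 and ACRE 4 the log2 fold changes were -0.24 for Perm1, -0.22 for Ogdh and -0.12 for Ndufs1. As with Ppargc1a and Esrrg, the sum of the cardiomyocyte markers, but not each marker, was highest in the same libraries. The gene Mb belongs both to this list and to those markers, and its log2 fold change is the list median of -0.49.

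Genes that maintain and transcribe mitochondrial DNA, with partners of nuclear respiratory factor 1, differed less. All 22 were tested, 17 were lower and 5 higher, with a median of -0.16 (-0.09 without ACRE 2 and ACRE 4), 0 past the edgeR threshold and 4 lower at an unadjusted p under 0.05 (DESeq2 passed 1, lower). Scaled to library size alone, 11 were lower and 11 higher. Mterf2, of the mitochondrial termination factor family, was at 12.9, 11.4, 12.8 and 16.7 CPM (ACRE 1 to 4), against 9.42, 7.47, 6.70 and 8.82 CPM (CMS7KO 1 to 4). The groups of Mterf2 did not overlap, with CMS7KO below as for 4.18% of genes. Its log2 fold change was -0.72 (SE 0.20, edgeR adjusted p = 0.225), and -0.67 without ACRE 2 and ACRE 4. Tfb1m, which methylates mitochondrial ribosomal RNA, was at 4.21 to 7.38 CPM in ACRE and 2.24 to 4.71 CPM in CMS7KO (-0.89, adjusted p = 0.283, and -0.53 without these 2 libraries), and Alas1, the first enzyme of heme synthesis, at 142 to 392 and 93.3 to 177 CPM (-0.92, adjusted p = 0.311, and -0.14).

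Transcripts of the mitochondrial genome, on which Tfam acts, took 16.4 to 21.2% of all counted reads in ACRE and 17.6 to 23.5% in CMS7KO, with means of 19.9 ± 2.35% and 20.2 ± 2.48% (SD, n = 4 each). A two-sided exact permutation test over the 70 assignments of the libraries gave p = 0.914. The lowest share was that of ACRE 1 and the highest that of CMS7KO 4. On the scaled CPM of the gene test, all 13 protein-coding genes of the organelle had a log2 fold change below 0, with a median of -0.19 and 0 past the edgeR and DESeq2 thresholds, though 7 of 13 were above 0 when scaled to library size alone. An unadjusted p under 0.05 was found for 1. As for Tfam, ACRE 2 and ACRE 4 were the 2 highest libraries on this scale for 7 of the 13. Without ACRE 2 and ACRE 4, 8 of 13 were above 0 and the median was 0.15. The smallest p belonged to mt-Nd3, a complex I subunit, at 268, 226, 405 and 200.2 CPM in ACRE 1 to 4, with CMS7KO at 145 to 183 CPM. Its groups did not overlap, with CMS7KO below as for 4.18% of genes. The log2 fold change of mt-Nd3, CMS7KO minus ACRE, was -0.72 (SE 0.24, edgeR adjusted p = 0.282). Without ACRE 2 and ACRE 4, its 2 lowest controls, it passed, lower, at -1.004 (SE 0.18, edgeR adjusted p = 0.0347). In that setting 0.979% of all genes passed, against 0.0358% with all 8 libraries. The next, mt-Atp6 and mt-Nd1, had log2 fold changes of -0.43 (adjusted p = 0.455) and -0.25 (adjusted p = 0.621), and of -0.046 and -0.10 without these 2 libraries.

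**Figure D4:**
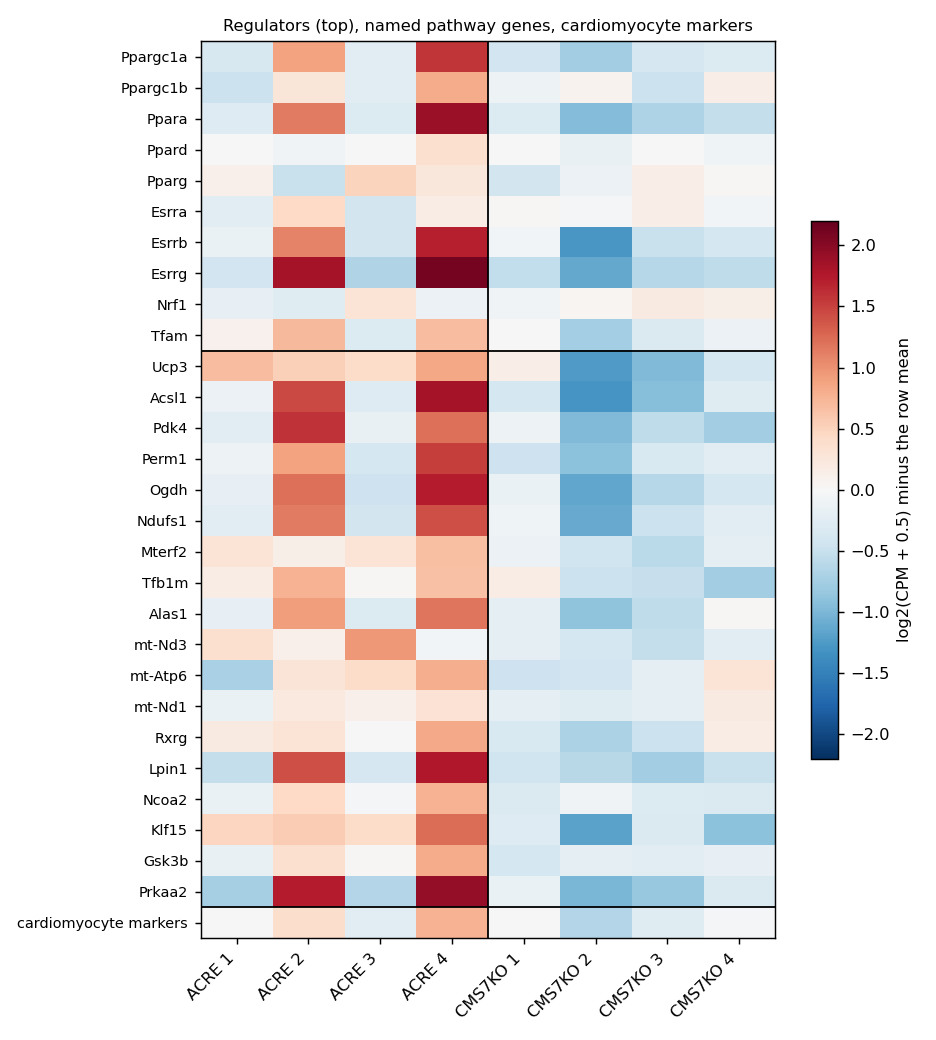
Log2(CPM + 0.5) minus the row mean in each library for the 10 regulators (above the first line), the 3 genes of smallest p from each pathway list, and the geometric mean of the cardiomyocyte markers (last row). Columns ACRE 2 and ACRE 4 are red for Ppargc1a, Ppara, Esrrb and Esrrg and for genes such as Acsl1, Ogdh, Lpin1 and Prkaa2, while Ucp3 and Klf15 are red in all 4 ACRE columns.

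Of 15 heterodimer partners, coactivators and corepressors, 11 were lower and 4 higher (median -0.24, -0.041 without ACRE 2 and ACRE 4 and -0.071 scaled to library size alone), 0 past the edgeR threshold, 3 lower and 1 higher at an unadjusted p under 0.05, and DESeq2 passed 1, lower. Rxrg, the retinoid X receptor enriched in muscle, stood at 40.1, 43.4, 35.3 and 62.5 CPM over ACRE 1 to 4 and, over CMS7KO 1 to 4, at 27.7, 21.5, 25.1 and 39.5 CPM. The groups overlapped through CMS7KO 4, and the log2 fold change was -0.68 (SE 0.22, edgeR adjusted p = 0.278), and -0.43 without ACRE 2 and ACRE 4. Lpin1, a phosphatidate phosphatase that also acts with PGC-1alpha and PPARalpha, was at 54.7, 212, 60.98 and 268 CPM in ACRE 1 to 4, with CMS7KO at 46.3 to 58.3 CPM, the order seen for Ppara (-1.48, adjusted p = 0.278, and -0.13 without ACRE 2 and ACRE 4). Ncoa2, a coactivator of nuclear receptors, was at 39.9 to 75.01 CPM in ACRE and 35.1 to 41.7 CPM in CMS7KO (-0.55, adjusted p = 0.307, and -0.17 without them).

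Among 20 genes upstream of PGC-1, 19 were tested (all but Camk4), 16 were lower and 3 higher (median -0.26, and 0.02 without ACRE 2 and ACRE 4), 0 past the edgeR threshold and 3 lower at an unadjusted p under 0.05, with 1 passed by DESeq2, lower. Klf15, a factor that promotes lipid and amino acid use in heart, was at 32.9, 34.9, 31.6 and 55.9 CPM (ACRE 1 to 4), against 19.3, 10.2, 18.9 and 12.5 CPM (CMS7KO 1 to 4). All 4 CMS7KO libraries lay below all ACRE libraries, as for 4.18% of genes, and ACRE 1 to 3 lay close together. The log2 fold change was -1.34 (SE 0.26, edgeR adjusted p = 0.1599), and -1.09 (SE 0.25, adjusted p = 0.0897) without ACRE 2 and ACRE 4. Prkaa2, the catalytic AMP kinase subunit of muscle, was at 32.1, 178, 34.3 and 207 CPM in ACRE and 26.5 to 48.4 CPM in CMS7KO (-1.61, adjusted p = 0.302, and 0.15 without these 2 libraries, so its sign turned). Gsk3b, a kinase that marks PGC-1alpha for breakdown, was at 51.7 to 102 CPM in ACRE and 43.98 to 51.04 CPM in CMS7KO (-0.55, adjusted p = 0.3001, and -0.19 without ACRE 2 and ACRE 4). The groups of Gsk3b did not overlap, with CMS7KO below as for 4.18% of genes.

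Markers of other cell types differed with the labels as well. The 12 fibroblast markers summed to 3587 to 4133 CPM in ACRE and 4428 to 7883 CPM in CMS7KO, and the 10 macrophage markers to 469 to 828 and 944 to 1154 CPM. All 12 fibroblast markers and 9 of 10 macrophage markers had a log2 fold change above 0, all 12 cardiomyocyte markers one below 0, and 0 of these 34 passed the threshold. Their part in the differences of the members and of the pathway genes was not tested.

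**Figure D5:**
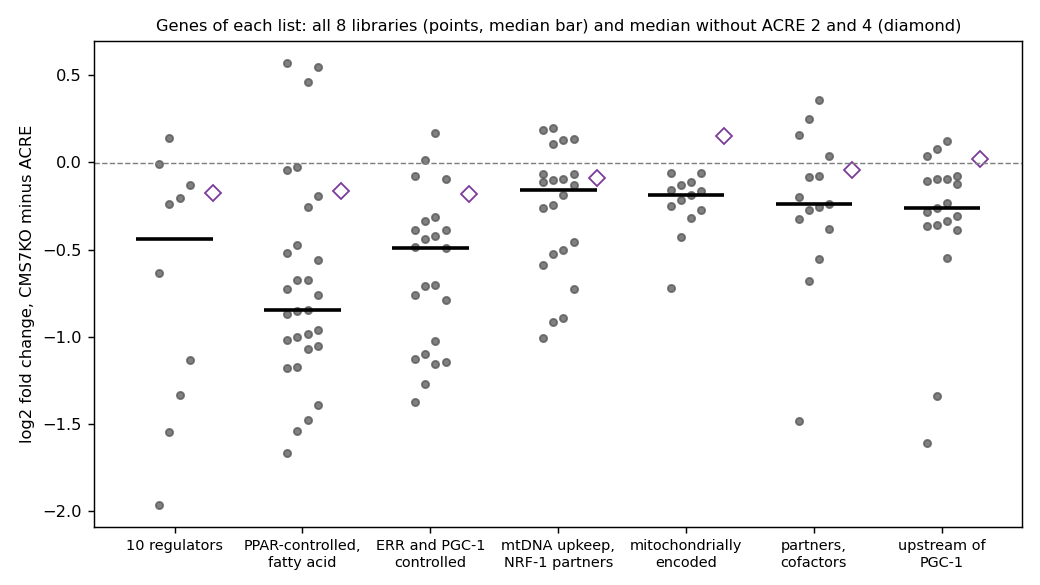
Log2 fold change, CMS7KO minus ACRE, of each tested gene in the regulators and the 6 pathway lists, with the median over all 8 libraries (bar), the median without ACRE 2 and ACRE 4 (diamond) and the median of all genes (dashed line). The median of the fatty acid genes moves from -0.85 to -0.16.

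By edgeR, 0 of 10 members and 0% of all genes passed the threshold for the sex label. An unadjusted p under 0.05 was found for Pparg alone, higher in the libraries labelled female, while 1.23% of all genes had one. ACRE 3 and CMS7KO 3, labelled female, had many Ddx3y reads and hardly any of Xist. The label therefore does not divide the hearts by sex, and tests on it do not measure an effect of sex. The genotype difference of Ppargc1a was -0.99 in the libraries labelled male and -1.28 in those labelled female, and that of Esrrg -1.97 and -1.95, each from 2 libraries per group. No member passed the test of a difference in genotype effect between the sex labels (edgeR interaction, unadjusted p 0.376 to 0.985, 0 of 10 under 0.05 where 1.06% of genes were). Because each sex label holds 1 of the libraries ACRE 2 and ACRE 4, these splits do not separate the label from those 2 hearts. The labels call the samples of a group independent, but give no litter, operation day or library batch, so p-values measure the spread between these hearts only.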

How the data were processed

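The deposited table holds whole-number read counts per gene for 8 mouse heart libraries, not normalized by the authors. Tools and builds listed in the submitters' processing notes are CASAVA, TopHat2 (2.0), Cufflinks (2.1.1), HTSeq (0.6.1), mm10 and GRCm38.p6, with no strand setting or annotation release. Of the 10 members, 0 start where the GRCm38 annotation (GENCODE) places them, so the table's positions are given without a build.

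Samples were grouped by title. In R 4.3.3, edgeR 4.0.16 kept genes by filterByExpr on genotype and sex label, scaled by trimmed mean of M values (factors 0.803 to 1.13) and tested genotype with robust quasi-likelihood F tests, sex label as covariate (5 residual degrees of freedom, Benjamini-Hochberg over 16780 genes, threshold 0.05). Normalized levels are CPM from the deposited counts. DESeq2 1.42.0 and limma 3.58.1 were alternatives, with other scalings, filters and left-out libraries. No 2 libraries agreed within sampling noise (smallest chi-square per degree of freedom 17.5). At the lowest member count, 94 reads, counting error adds to the spread between hearts. Replicate numbers did not pair the libraries. The members and gene lists were chosen with earlier results of these data known. Named are all members, the 3 smallest p per list, and the 3 nearest genes of each member with at least 5 CPM and a log2 range of at least 1.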

Additional observations from a re-analysis of the deposited data

Results flagged for a closer look

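In 6 of 76 groups of 4 libraries 1 library lay far from the other 3. Chance flags about 1 in 20 such groups. Ppard in ACRE 4 stood at 49.1 CPM, where the other ACRE libraries had 36.3 to 38.3. ACRE 4 had the lowest trimmed mean factor (0.803), which raises its scaled CPM. Its 509 Ppard reads came from a total of 12920435. The other ACRE libraries had 541 to 654 Ppard reads from totals of 15046871 to 17199600. Klf15 in ACRE 4 was at 55.9 CPM against 31.6 to 34.9, and the summed brown fat markers in ACRE 2 were at 64.6 CPM against 53.6 to 54.4, with Ucp1 at or near 0. The mitochondrially encoded share in ACRE 1 was 16.4% against 20.9 to 21.2% in the other controls. In CMS7KO 4, mt-Nd1 was at 24159.6 CPM against 17470.0 to 18214, and in CMS7KO 2, Ncoa2 was at 41.7 CPM against 35.1 to 35.6.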

How the results depend on the processing

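All 10 members kept their side of the edgeR threshold under each alternative except with DESeq2, which passed 2, and with no low count filter, which passed 4 (Ppargc1a, Ppara, Esrrb and Esrrg, all lower) among 32514 genes; the cause was not tested. The number of genes past the threshold was 6, and 484 with DESeq2, 1368 with no filter, 175 without ACRE 2 and ACRE 4, 1 without ACRE 3 and CMS7KO 3, and 0 to 17 when single libraries were left out. Without CMS7KO 1, 2 or 3 it was 0 (2173, 1531 and 1487 genes at an unadjusted p under 0.05), without ACRE 2 it was 17 and without ACRE 4 it was 11. With a replicate block it was 3, with 0 members. The replicate numbers did not pair the libraries (correlations of same-numbered deviations -0.17, -0.19, 0.12 and 0.20). The log2 fold change of Esrra turned sign to 0.19 with library size alone, 0.017 with limma voom, 0.024 with the replicate block and 0.33 without ACRE 2 and ACRE 4, and ranged from -0.14 to 0.17 over single left-out libraries. Ppard turned to 0.034 with library size alone. Ppargc1b turned to 0.29 without ACRE 2 and ACRE 4 and ranged from -0.43 to 0.064 over single left-out libraries. Leaving out 1 library also moved Esrrg between -2.31 and -1.25, Ppara between -1.83 and -0.90, Esrrb between -1.67 and -0.76 and Ppargc1a between -1.38 and -0.66. Library size alone shifted the median of all genes by 0.15, so changes are read relative to it. The log2 difference of the mitochondrially encoded share was 0.02, ranged from -0.075 to 0.077 over single left-out libraries and was -0.013 outside the 10 most abundant other genes. Of 118 medians of lists under other settings, 6 moved by more than the spread between libraries and 112 did not. Low counts limit Ppara most, with 94 to 409 reads per library. The confidence intervals given for edgeR folds include the spread between hearts as well as counting error.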
